A study of Mus musculus with 8 samples.

Results

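The genes described here are 38 genes of glycolysis and of the response to low oxygen, chosen by name. They comprise 15 glycolytic enzymes, 7 genes of glucose and lactate transport and of flux control, 15 further targets of the hypoxia-inducible factors (HIFs), and the HIF subunit gene Hif1a. The choice was made with earlier results of these data known. All 38 names were found among 52281 named loci, and all 38 reached a value of 10 in 2 or more of 8 libraries, as did 16623 loci in all. RNA-seq was done on mouse embryoid bodies, which are clusters of differentiating embryonic stem cells, at day 9 on a C57BL/6 background and in medium with serum.

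The Prdm16 knockout was compared with its own wild type, the Prdm16 control. A knockout of the PR domain of Prdm16, which carries exon 4 in its sample names, was compared with a separate wild type, the PR domain control. Each of the 4 groups had 2 libraries. The sources used here do not say whether replicates were separate cultures or whether knockout and control were separate clones, so p-values measure the spread between these libraries, and a knockout and its clone cannot be told apart. Levels are given as normalised fragments, which are the fragments on a locus over a size factor that the authors took for each library. The libraries held 6273789 to 9086885 fragments on named loci. Prdm16 itself read 24.4 and 26.3 normalised fragments in its control and 11.2 and 1.10 in its knockout, then 44.6 and 22.7 in the PR domain control and 23.3 and 15.7 in its knockout. A count over the whole gene does not show the loss of 1 exon.

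Glycolysis splits glucose into pyruvate in the cytosol, and lactate dehydrogenase can then reduce pyruvate to lactate, which leaves the cell through monocarboxylate transporters. When oxygen is low, the HIF alpha subunits escape hydroxylation and degradation, pair with their partner ARNT and bind hypoxia response elements with the core ACGTG or GCGTG. Their targets include most glycolytic enzymes, glucose transporters, kinases that switch off pyruvate dehydrogenase in the mitochondria, growth factors for blood vessels, and the HIF prolyl hydroxylases themselves, so that many of these genes can rise together. Embryonic stem cells and early embryos are known for high glycolysis, which falls in several lineages as they differentiate.

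Promoters of 36 of the 38 genes were present in the RefSeq table (GRCm38.p6), each as a window from 250 bases before to 50 bases after a transcript start. The exceptions were Ndrg1 and Slc2a3. The letters ACGTG, on either strand, stood in a window of 27 of 36 genes (75%), against 21.78% of 27025 genes in the table. Either ACGTG or GCGTG stood in a window of 34 of 36 genes (94.44%), against 46.73% of all genes. By role, ACGTG was found for 10 of 15 glycolytic enzymes, 4 of 6 genes of transport and flux control and 12 of 14 other HIF targets. The letters were counted in windows of equal length without matching base composition, and CACGTG, which holds ACGTG on both strands, is also the E-box core bound by other factors. The stretches below each lie upstream of 1 RefSeq transcript start. They come from 5 genes that were higher in the Prdm16 knockout and from Pfkl, which passed in neither knockout. They are shown so that the letters can be read in place, 5′ to 3′ on the strand of the gene, with every ACGTG or GCGTG of either strand in capitals (CACGT and CACGC are their other strands).
Ldha, chr7:46845654-46845803, plus strand: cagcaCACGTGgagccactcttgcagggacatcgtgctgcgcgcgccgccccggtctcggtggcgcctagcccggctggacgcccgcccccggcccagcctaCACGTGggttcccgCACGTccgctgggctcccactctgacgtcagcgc
Hk2, chr6:82774455-82774604, minus strand: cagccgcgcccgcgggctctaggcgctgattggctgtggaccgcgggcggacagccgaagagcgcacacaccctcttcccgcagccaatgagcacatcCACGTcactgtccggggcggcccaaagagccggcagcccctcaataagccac
P4ha1, chr10:59323146-59323295, plus strand: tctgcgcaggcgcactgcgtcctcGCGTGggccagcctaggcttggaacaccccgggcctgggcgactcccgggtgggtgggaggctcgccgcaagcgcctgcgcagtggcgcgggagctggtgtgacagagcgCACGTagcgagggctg
P4ha2, chr11:54100774-54100923, plus strand: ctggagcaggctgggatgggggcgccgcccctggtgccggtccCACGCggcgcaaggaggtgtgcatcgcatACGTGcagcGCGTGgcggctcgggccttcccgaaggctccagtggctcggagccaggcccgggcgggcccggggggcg
Bnip3, chr7:138909520-138909656, minus strand: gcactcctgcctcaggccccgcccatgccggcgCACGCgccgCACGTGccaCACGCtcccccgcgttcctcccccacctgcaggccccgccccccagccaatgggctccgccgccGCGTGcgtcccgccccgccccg
Pfkl, chr10:78009808-78009957, minus strand: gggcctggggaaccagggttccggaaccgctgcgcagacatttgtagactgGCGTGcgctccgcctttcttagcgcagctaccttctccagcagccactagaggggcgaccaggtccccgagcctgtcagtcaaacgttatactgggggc
The Ldha, P4ha2 and Pfkl stretches lie within the annotated gene. The Ldha stretch held 5 matches of ACGTG, the Bnip3 stretch 2 of ACGTG among 5 in all, and the Hk2 stretch 1. The other Ldha window, not shown, held 2 matches of GCGTG and no ACGTG. The Pfkl stretch held 1 GCGTG and no ACGTG. The stretches shown do not stand for all members. Of the 19 genes with a window that were higher in the Prdm16 knockout, 15 held ACGTG, as did 10 of 15 that did not pass and 2 of 2 that were lower, Pkm and Gapdh. Gpi1 and Tpi1 rose with neither motif in a window, Pfkp with GCGTG alone, and Hk1 and Pgk1 held ACGTG and did not pass there. In the PR domain knockout ACGTG was held by 3 of 5 genes that were higher, 3 of 4 that were lower and 21 of 27 that did not pass. A match of these letters is a description and does not show binding.

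Per length, the most abundant of the 38 genes were the neuronal-type glucose transporter gene Slc2a3, with a median of 677 FPKM over 8 libraries, and the enzymes Aldoa (550.3 FPKM), Pkm (534 FPKM), Ldha (503 FPKM) and Tpi1 (336 FPKM). The lowest were Adm (1.81 FPKM) and Car9 (2.60 FPKM). The group mean of normalised fragments was highest in the Prdm16 knockout for 24 of 38 genes. It was lowest there for 6, and lowest in the PR domain knockout for 13. The order of groups was not counted over all loci, so these counts describe the 38 genes and do not set them apart.

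**Figure D1:**
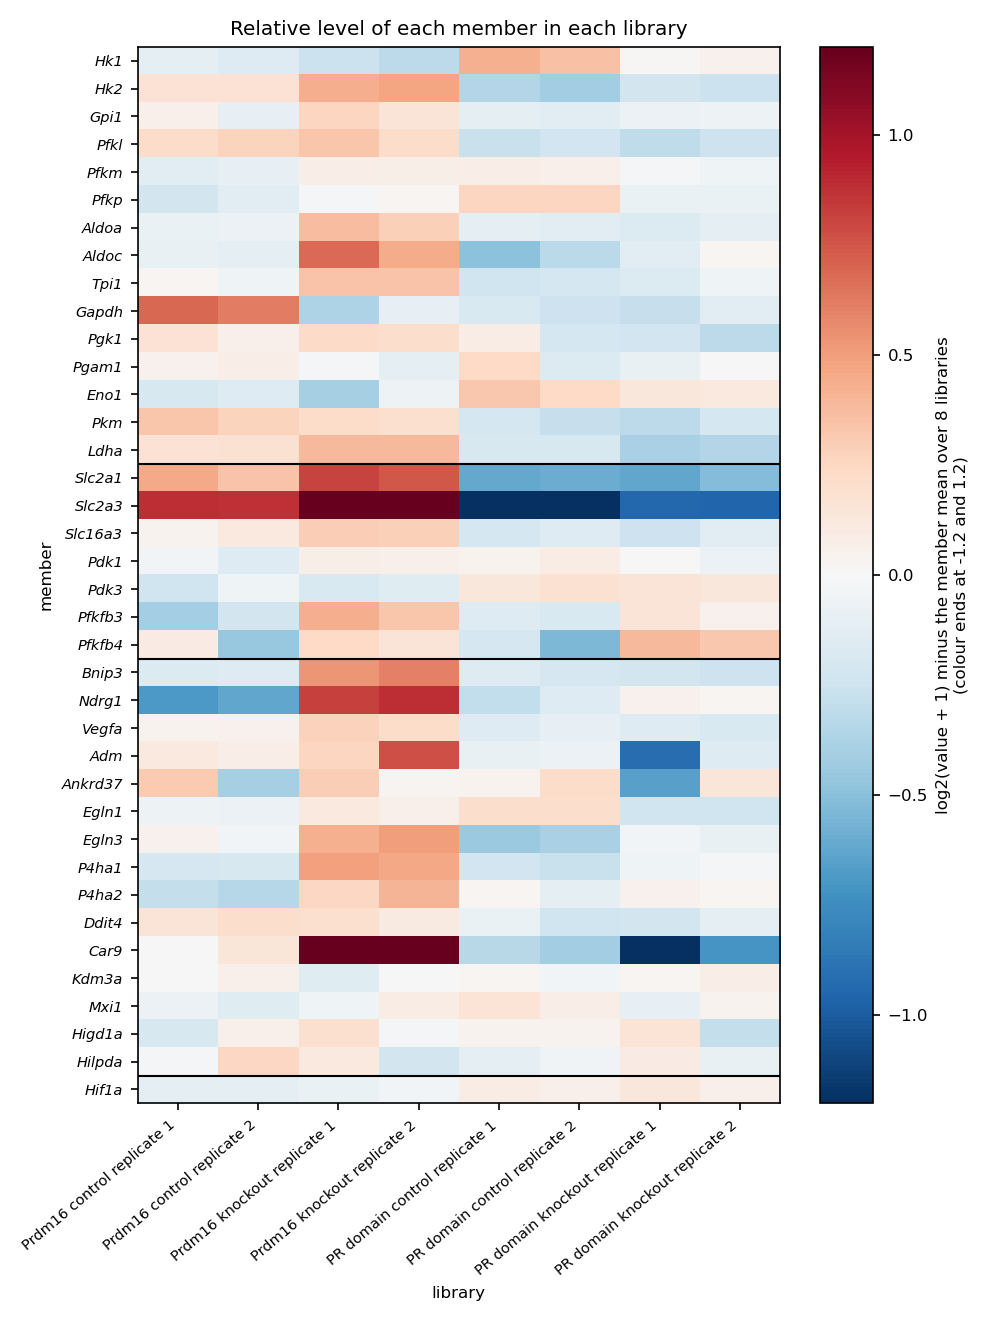
Relative level of each of the 38 genes (rows, grouped by role) in each of the 8 libraries (columns), as log2(value + 1) minus the mean of that gene over all libraries. The group mean is highest in the Prdm16 knockout for 24 of 38 genes, a count not made over all loci. Slc2a3 shows the widest step, between the Prdm16 libraries and the PR domain libraries.

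In the Prdm16 knockout, 21 of the 38 genes were higher than in the control and 2 were lower at a limma adjusted p below 0.05. Of all 16623 loci, 39.1% passed, 18.0% higher and 21.1% lower. Of these calls 45.9% were higher, against 55.0% with TMM, 52.9% with DESeq2 and 39.3% with total-fragment scaling. The median log2 fold change was 0.20 over the 38 genes and -0.03 over all loci. Of the glycolytic enzymes, 8 of 15 rose and 2 fell, with a median of 0.17. Of transport and flux control, 5 of 7 rose and 0 fell, with a median of 0.37. Of the other HIF targets, 8 of 15 rose and 0 fell, with a median of 0.21. In bulk RNA, fewer cells of a type and less RNA per cell cannot be told apart. On the scale of value + 1, Ndrg1 rose 2.85-fold and Car9 2.49-fold, and the 19 other genes that rose lay between 1.115-fold (Egln1) and 1.655-fold (Bnip3). On log2(FPKM + 1), 11 of 38 were higher and 1 lower: Hk2, Pfkm, Aldoc, Pkm, Slc16a3, Vegfa, Egln1, Egln3 and Car9 no longer passed, and Pfkp and Pdk1 turned negative. Of all loci, 1226 were then higher and 1018 lower, in place of 2987 and 3515.

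In the PR domain knockout, 7 of the 38 genes were higher and 4 lower. Of all loci, 19.2% passed, 8.48% higher and 10.7% lower. The median log2 fold change was -0.01 over the 38 genes and -0.03 over all loci. Of the glycolytic enzymes, 1 of 15 rose and 3 fell. Of transport and flux control, 3 of 7 rose and 0 fell, and of the other HIF targets, 3 of 15 rose and 1 fell. Slc2a3, Pfkfb3, Ndrg1, Egln3, P4ha1 and Tpi1 were higher in both knockouts, which is 6 of the 21 higher in the Prdm16 knockout and 6 of the 7 higher in the PR domain knockout. Ldha, Pfkp and Egln1 were higher in the Prdm16 knockout and lower in the PR domain knockout. Genes shared or opposed between the knockouts were not counted over all loci, so these counts do not set the 38 genes apart. With DESeq2 scaling, 54.4% of all calls in this comparison were higher, against 44.2% with the authors' scaling, and 9 of the 38 genes were then higher and 4 lower. On log2(FPKM + 1), 307 of all loci were higher and 275 lower, in place of 1410 and 1780. Without PR domain control replicate 1, PR domain control replicate 2 or PR domain knockout replicate 1, fewer of the 38 genes were higher. Fewer of all loci were then higher too. On log2(FPKM + 1), 1 of the 38 was higher (Slc2a3) and 1 lower (Egln1).

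**Figure D2:**
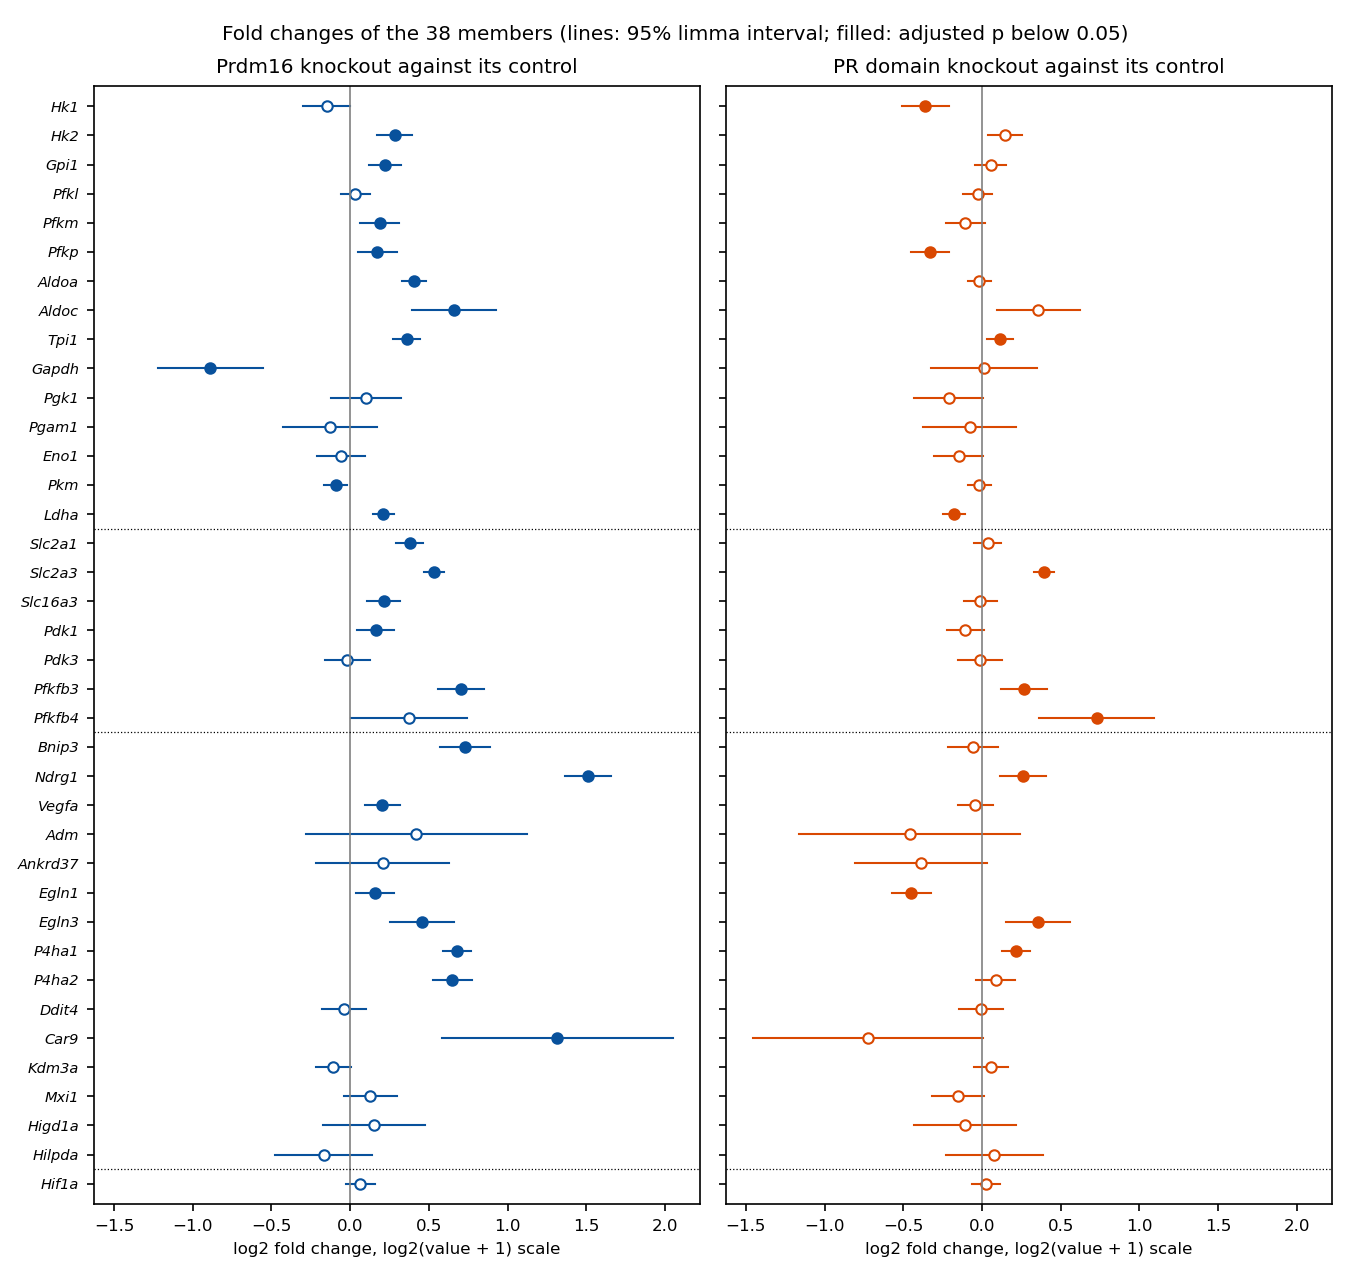
Log2 fold change, on the log2(value + 1) scale, of each of the 38 genes in both knockouts (Prdm16 left, PR domain right), each against its own control; lines are 95% limma intervals and filled points have an adjusted p below 0.05. Of the filled points, 21 lie above 0 and 2 below in the Prdm16 knockout, and 7 above and 4 below in the PR domain knockout.

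Markers of several cell types moved in the same comparisons. The summed level of 10 endoderm markers, which include Afp and Apoa1, came to normalised fragments of 37056 and 38701 in the Prdm16 control against 78556 and 79372 in its knockout, with 5522 and 5833 in the PR domain control against 10193 and 10073 in its knockout. Of these, 8 of 10 rose in the Prdm16 knockout, and 9 rose and 1 fell in the PR domain knockout. Afp itself had normalised fragments of 5158 and 5438 in the Prdm16 control against 13625 and 13685 in its knockout, with 2128 and 2132 in the PR domain control against 2869.9 and 2935 in its knockout. Apoa1 had normalised fragments of 1966 and 2279 in the Prdm16 control against 5301 and 5152 in its knockout, with 380.3 and 424 in the PR domain control against 852 and 960.3 in its knockout. The 9 macrophage markers summed to 1677 and 1784 in the Prdm16 control against 3672 and 3787 in its knockout, with 5364 and 5172 in the PR domain control against 10091 and 10042 in its knockout. Of these, 8 and 9 of 9 rose in the Prdm16 and PR domain knockouts. The 8 fibroblast and matrix markers summed to 109904 and 109273 in the Prdm16 control against 149965 and 146820.0 in its knockout, with 145447 and 144699 in the PR domain control against 183765 and 180991 in its knockout. Here 6 and 8 of 8 were higher. The 10 erythroid markers summed to 7757 and 7593 in the Prdm16 control against 10815 and 10742 in its knockout, with 10974 and 10406 in the PR domain control against 21005 and 20748 in its knockout. Of these, 7 were higher and 1 lower in the Prdm16 knockout, and 8 were higher in the PR domain knockout. The 9 cardiomyocyte markers summed to 8464 and 8719 in the Prdm16 control against 7297 and 7298 in its knockout, with 18235 and 18295 in the PR domain control against 9648 and 9709.6 in its knockout. Here 6 were lower and 1 higher of 9 in the Prdm16 knockout, and 8 lower and 1 higher in the PR domain knockout. The 8 endothelial markers summed to 4999 and 4939 in the Prdm16 control against 4444 and 4615 in its knockout, with 6866 and 7049 in the PR domain control against 4949 and 4854 in its knockout. Here 5 were lower and 2 higher of 8 in the Prdm16 knockout, and 8 lower in the PR domain knockout. The 8 neural markers summed to 1528 and 1526 in the Prdm16 control against 839 and 836 in its knockout, with 1791 and 1755 in the PR domain control against 1252 and 1259.7 in its knockout. Here 8 and 3 of 8 were lower. Of 5 pluripotent cell markers tested, 3 fell and 1 rose in the Prdm16 knockout, and 2 fell and 1 rose in the PR domain knockout. Pou5f1 had normalised fragments of 272 and 262 in the Prdm16 control against 151 and 129 in its knockout, with 9.13 and 8.26 in the PR domain control against 15.3 and 17.4 in its knockout. Markers of each germ layer were thus present in every library, and the part of cell makeup in the results on the 38 genes was not tested.

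Among the enzymes of the upper steps, Hk2 (ENSMUSG00000000628.10, chromosome 6, 82725025 to 82774454, minus strand, GRCm38 as for all positions here), the inducible hexokinase that traps glucose as its phosphate, had normalised fragments of 1282 and 1282 in the Prdm16 control against 1538 and 1579 in its knockout, with 894 and 854 in the PR domain control against 979.6 and 955 in its knockout. Both Prdm16 knockout libraries lay above both controls, and the log2 change was 0.28 ± 0.05 (limma adjusted p = 8.65e-05). In the PR domain knockout it lay at 0.15 ± 0.05 and did not pass (limma adjusted p = 0.052). Hk1, the widely expressed hexokinase, had normalised fragments of 441 and 431 in the Prdm16 control against 401 and 385 in its knockout, with 643 and 610.0 in the PR domain control against 482 and 495 in its knockout. It fell in the PR domain knockout by 0.36 on the log2 scale (SE 0.07, limma adjusted p = 0.000458). Gpi1, which converts glucose phosphate to fructose phosphate, had normalised fragments of 2367 and 2123 in the Prdm16 control against 2706 and 2524 in its knockout, with 2097 and 2069 in the PR domain control against 2152 and 2176 in its knockout. It rose in the Prdm16 knockout by 0.22 ± 0.05 (limma adjusted p = 0.000561), which was 0.14 and did not pass without Prdm16 control replicate 2.

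The phosphofructokinase subunits, which form the committing enzyme of the pathway, differed among themselves. Pfkp (ENSMUSG00000021196.14, chromosome 13, 6579768 to 6648777, minus strand), the platelet-type subunit, had normalised fragments of 699.7 and 748 in the Prdm16 control against 803 and 828 in its knockout, with 974 and 973 in the PR domain control against 773 and 774 in its knockout. It rose in the Prdm16 knockout, with a log2 change of 0.17 ± 0.06 (limma adjusted p = 0.0224), and fell in the PR domain knockout by 0.33 (SE 0.06, limma adjusted p = 0.000112). The rise did not hold across settings: it was -0.13 on log2(FPKM + 1), and did not pass without Prdm16 control replicate 1 (0.12) or Prdm16 knockout replicate 2 (0.15). Pfkm, the muscle-type subunit, whose locus is joined with the gene model Gm26513, had normalised fragments of 679.6 and 697 in the Prdm16 control against 785 and 782 in its knockout, with 786 and 778 in the PR domain control against 736 and 717 in its knockout. It was higher in the Prdm16 knockout by 0.19 ± 0.06 (limma adjusted p = 0.0146), which did not pass without Prdm16 control replicate 1 (0.17), Prdm16 knockout replicate 1 (0.18) or Prdm16 knockout replicate 2 (0.19). Pfkl, the liver-type subunit, was the most abundant of these per length, at a median of 111 FPKM against 32.3 FPKM for Pfkm and 31.9 FPKM for Pfkp. It had normalised fragments of 3064 and 3166 in the Prdm16 control against 3314 and 3058 in its knockout, with 2178 and 2245 in the PR domain control against 2128 and 2218 in its knockout. It passed in neither knockout, and its 95% intervals on the log2 scale were -0.06 to 0.12 for the Prdm16 knockout and -0.12 to 0.07 for the PR domain knockout.

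Of the splitting steps, Aldoa (ENSMUSG00000030695.16, chromosome 7, 126795234 to 126800751, minus strand), the main aldolase, had normalised fragments of 5729 and 5782 in the Prdm16 control against 7851 and 7400.2 in its knockout, with 5638 and 5568 in the PR domain control against 5433 and 5644 in its knockout. The Prdm16 knockout libraries stood above the other 6, which lay close together, and the rise came to 0.41 ± 0.04 (limma adjusted p = 1.98e-10). In the PR domain knockout the 95% interval was -0.09 to 0.06. Aldoc, the brain-type aldolase, had normalised fragments of 139 and 137 in the Prdm16 control against 237 and 201 in its knockout, with 104 and 118 in the PR domain control against 135 and 149.7 in its knockout. Aldoc rose in the Prdm16 knockout by 0.66 ± 0.13 (limma adjusted p = 0.000146). Tpi1, which interconverts both triose phosphates, had normalised fragments of 3689 and 3513 in the Prdm16 control against 4619 and 4614 in its knockout, with 3091 and 3143 in the PR domain control against 3253 and 3505 in its knockout. Its rise in the Prdm16 knockout was 0.36 ± 0.04 (limma adjusted p = 3.24e-08). Its small rise in the PR domain knockout, 0.12 ± 0.04 (limma adjusted p = 0.0476), was 0.06 without PR domain knockout replicate 2 and also did not pass without PR domain control replicate 1 (0.10), PR domain control replicate 2 (0.13) or either Prdm16 knockout library (0.12 in both cases).

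Of the enzymes that lead to pyruvate, Pkm, pyruvate kinase of most tissues, whose locus is joined with the gene model AC160637.1, had normalised fragments of 9589.8 and 9203 in the Prdm16 control against 8871 and 8741 in its knockout, with 6586 and 6302 in the PR domain control against 6154 and 6589.7 in its knockout. It was lower in the Prdm16 knockout by 0.09 on the log2 scale (SE 0.04, limma adjusted p = 0.0415), a call that 12 of 19 alternatives ended, among them DESeq2 and TMM scaling and the omission of Prdm16 control replicate 1 (-0.06), Prdm16 knockout replicate 1 (-0.10), Prdm16 knockout replicate 2 (-0.08) or either PR domain control library (-0.09 in both cases). Pgk1, Pgam1 and Eno1, the enzymes before it, passed in neither knockout, and Eno1 had normalised fragments of 670.1 and 690.3 in the Prdm16 control against 581 and 733 in its knockout, with 956 and 902 in the PR domain control against 841 and 834 in its knockout. Ldha (ENSMUSG00000063229.15, chromosome 7, 46841475 to 46855627, plus strand), the lactate dehydrogenase subunit that favours lactate, had normalised fragments of 6846 and 6885 in the Prdm16 control against 7940.4 and 7954 in its knockout, with 5320.1 and 5336 in the PR domain control against 4639 and 4773 in its knockout. Its groups did not overlap in either comparison, and it moved in opposite directions, up in the Prdm16 knockout with 0.21 ± 0.03 (limma adjusted p = 8.9e-06) and down in the PR domain knockout by 0.18 (SE 0.03, limma adjusted p = 0.000187).

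Gapdh (ENSMUSG00000057666.18, chromosome 6, 125161715 to 125166467, minus strand), the glyceraldehyde phosphate dehydrogenase gene that is often used as a reference transcript, was, with Pkm, 1 of 2 enzymes that fell in the Prdm16 knockout. It had normalised fragments of 143 and 136 in the Prdm16 control against 68.2 and 82.5 in its knockout, with 78.1 and 74.3 in the PR domain control against 72.7 and 81.1 in its knockout. The Prdm16 control libraries were high and the other 6 low, and the gene was lower in the Prdm16 knockout by 0.89 on the log2 scale (SE 0.16, limma adjusted p = 6.28e-05). Per length its median of 5.90 FPKM placed it 35th of 38 genes. Of the 50-base windows of its annotated transcript, 82.49% also occurred in other annotated genes, 213 of 222 of them pseudogenes. Over 40% of windows were also shared for Eno1 (72.19%), Pgk1 (67.96%), Bnip3 (48.92%) and Pgam1 (41.48%), and these had medians of 8.39 to 190 FPKM. The sources used here do not say how fragments that fit several places were treated, so the levels of these 5 genes are uncertain. Among the 33 other genes, 20 were higher and 1 lower in the Prdm16 knockout, and 7 higher and 4 lower in the PR domain knockout.

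**Figure D3:**
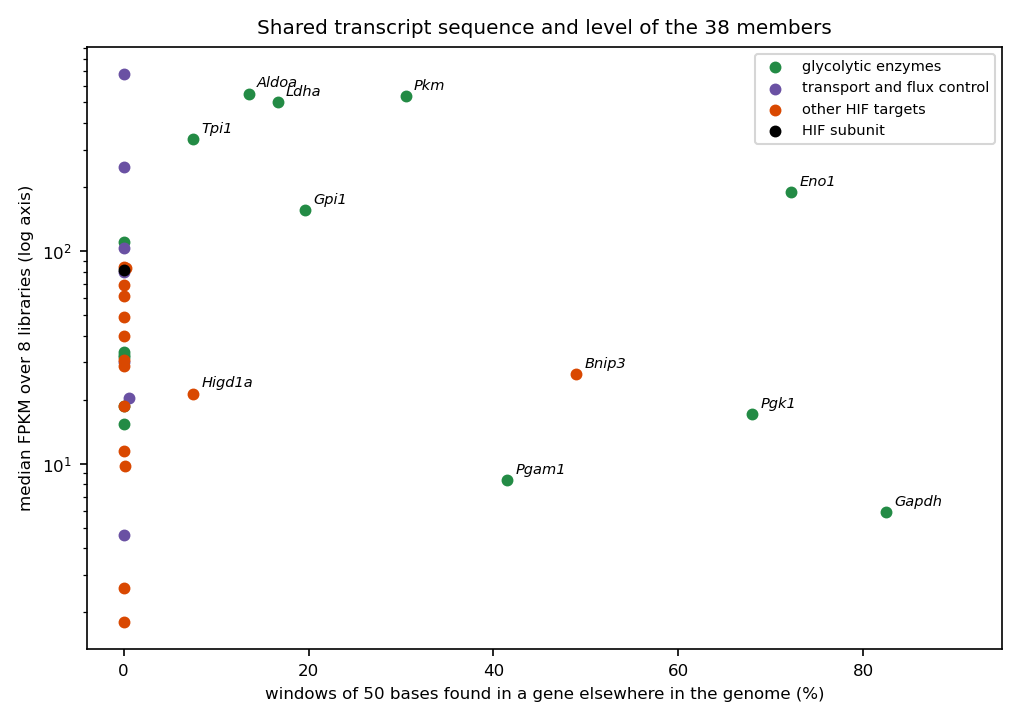
Median FPKM over 8 libraries (log axis) of each of the 38 genes against the share of 50-base windows of its transcript that also occur in another annotated gene, coloured by role. Gapdh lies farthest right at 82.49% with 5.90 FPKM, and Eno1, Pgk1, Bnip3 and Pgam1 are the other genes above 40%.

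Of the glucose and lactate transporters, Slc2a3 spanned the widest range of group means among all 38 genes. Slc2a3 (ENSMUSG00000003153.10, chromosome 6, 122727809 to 122801640, minus strand), which encodes a high-affinity glucose transporter, had normalised fragments of 15947 and 15860.1 in the Prdm16 control against 23159 and 22910.2 in its knockout, with 3442 and 3387 in the PR domain control against 4504 and 4472 in its knockout. No groups overlapped, and the highest group mean was 6.75 times the lowest. It rose in both knockouts, by 0.53 ± 0.03 (limma adjusted p = 2.09e-14) and 0.39 ± 0.03 (limma adjusted p = 4.08e-11) on the log2 scale, and both calls held under each of 19 alternatives. Slc2a1 (ENSMUSG00000028645.11, chromosome 4, 119108711 to 119137983, plus strand), the basal glucose transporter of most cells, had normalised fragments of 6110.1 and 5640.3 in the Prdm16 control against 7785 and 7473 in its knockout, with 2905 and 2940.4 in the PR domain control against 2894 and 3106 in its knockout. It rose in the Prdm16 knockout, at 0.38 ± 0.04 (limma adjusted p = 1.61e-08), and had a 95% interval of -0.05 to 0.12 in the PR domain knockout. The summed endoderm, macrophage, fibroblast and erythroid markers given above also rose in both knockouts, and their part in the changes of both genes was not tested. Slc16a3, the lactate exporter of glycolytic cells, had normalised fragments of 1526 and 1602 in the Prdm16 control against 1820.1 and 1803 in its knockout, with 1279.8 and 1333 in the PR domain control against 1245 and 1352 in its knockout. Its rise in the Prdm16 knockout was 0.21 ± 0.05 (limma adjusted p = 0.00149), and the 95% interval in the PR domain knockout was -0.12 to 0.10.

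The bifunctional enzymes Pfkfb3 and Pfkfb4 make and remove the sugar bisphosphate that activates phosphofructokinase. Pfkfb3 had normalised fragments of 475 and 541 in the Prdm16 control against 856 and 797 in its knockout, with 567 and 556 in the PR domain control against 702 and 653 in its knockout. The knockout libraries were above their own controls in both comparisons, with rises of 0.70 ± 0.07 (limma adjusted p = 2.88e-09) and 0.27 ± 0.07 (limma adjusted p = 0.00655) on the log2 scale. The second did not pass without PR domain control replicate 2 (0.25) or PR domain knockout replicate 1 (0.22). Pfkfb4 was lower in level, at normalised fragments of 95.4 and 64.9 in the Prdm16 control against 105 and 99.0 in its knockout, with 77.1 and 60.9 in the PR domain control against 117 and 112 in its knockout. It rose in the PR domain knockout, at 0.73 ± 0.18 (limma adjusted p = 0.00333), but not without PR domain control replicate 2 (0.56). The Prdm16 control libraries of this gene were far apart, and its change in the Prdm16 knockout did not pass (limma adjusted p = 0.101).

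Pdk1 and Pdk3 encode kinases that switch off pyruvate dehydrogenase. Pdk1 had normalised fragments of 949 and 875 in the Prdm16 control against 1021 and 1017 in its knockout, with 998 and 1037 in the PR domain control against 967 and 925 in its knockout. It was higher in the Prdm16 knockout by 0.16 ± 0.06 (limma adjusted p = 0.0278), but was -0.11 on log2(FPKM + 1) and did not pass without Prdm16 control replicate 2 (0.10), Prdm16 knockout replicate 1 (0.16) or Prdm16 knockout replicate 2 (0.16). Pdk3 had normalised fragments of 536 and 613 in the Prdm16 control against 561 and 572 in its knockout, with 699 and 721 in the PR domain control against 709 and 699 in its knockout. It passed in neither knockout, with 95% intervals of -0.16 to 0.12 and -0.15 to 0.13.

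Among the other HIF targets, Ndrg1 (ENSMUSG00000005125.13, chromosome 15, 66929318 to 66969640, minus strand), a stress-induced gene whose loss causes a demyelinating neuropathy, had the smallest adjusted p of the 38 genes in the Prdm16 knockout. Its libraries had normalised fragments of 329.7 and 345 in the Prdm16 control against 944 and 984 in its knockout, with 433 and 478 in the PR domain control against 551 and 540.1 in its knockout. The Prdm16 knockout libraries stood far above the other 6, by 1.51 ± 0.07 (limma adjusted p = 1.29e-16) over their controls on the log2 scale. The PR domain knockout libraries also lay above their controls, by 0.26 ± 0.07 (limma adjusted p = 0.00887), which did not pass without PR domain control replicate 1 (0.19) or PR domain knockout replicate 1 (0.25). Bnip3, a receptor for the autophagy of mitochondria, had normalised fragments of 363 and 363 in the Prdm16 control against 586 and 617 in its knockout, with 365 and 353 in the PR domain control against 348 and 342 in its knockout. The rise in the Prdm16 knockout was 0.73 ± 0.08 (limma adjusted p = 8.02e-09), while its 95% interval in the PR domain knockout was -0.22 to 0.10. Of its transcript windows, 21.03% are also shared with an overlapping gene.

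P4ha1 and P4ha2 encode the catalytic subunits of collagen prolyl hydroxylase, which needs oxygen to stabilise the collagen helix. P4ha1 (ENSMUSG00000019916.14, chromosome 10, 59323296 to 59373304, plus strand) had normalised fragments of 1881 and 1886 in the Prdm16 control against 3042 and 2977 in its knockout, with 1838 and 1795 in the PR domain control against 2087 and 2125 in its knockout. It rose in both knockouts, at 0.68 ± 0.04 (limma adjusted p = 1.9e-13) and 0.21 ± 0.04 (limma adjusted p = 0.000485). P4ha2 had normalised fragments of 873 and 839.9 in the Prdm16 control against 1269 and 1420.4 in its knockout, with 1082 and 983 in the PR domain control against 1106 and 1085 in its knockout. The Prdm16 knockout libraries were again higher, by 0.65 ± 0.06 (limma adjusted p = 5.53e-10), and its 95% interval in the PR domain knockout was -0.04 to 0.21. Beside both genes, the collagen gene Col1a1 had normalised fragments of 14213 and 13489.9 in the Prdm16 control against 21458 and 19524 in its knockout, with 21643 and 21333 in the PR domain control against 32384 and 33794 in its knockout, and its part in these changes was not tested.

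**Figure D4:**
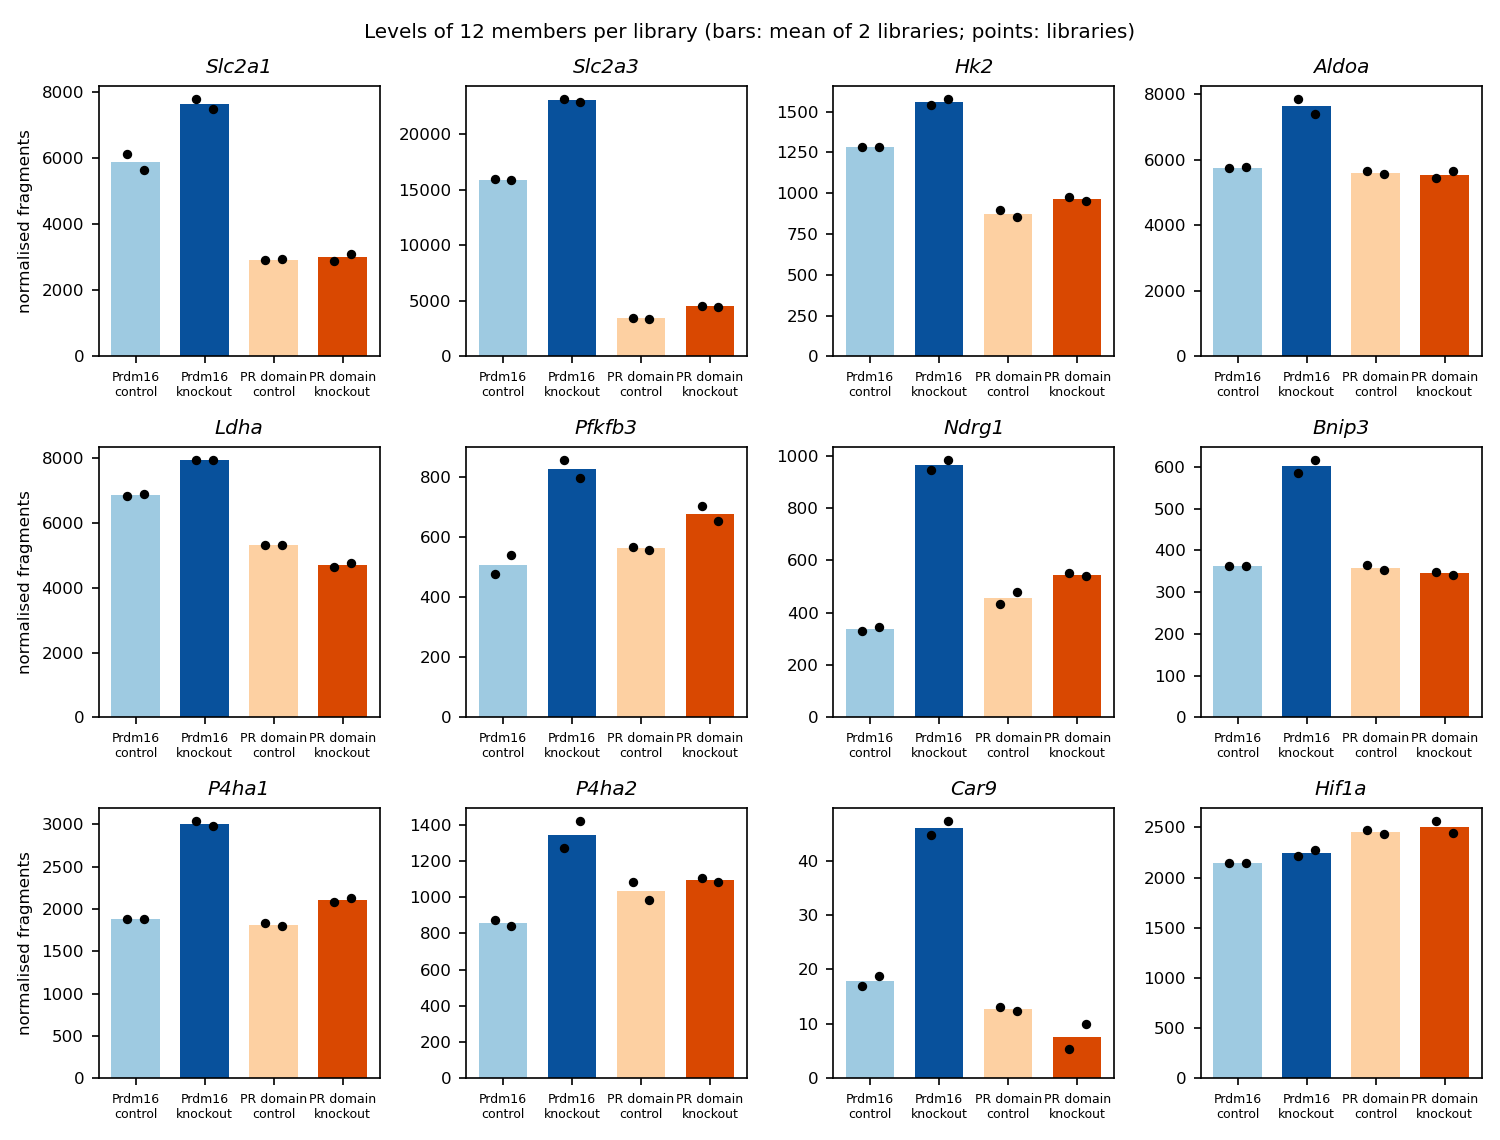
Normalised fragments of 12 picked genes in each library (points) with the mean of 2 libraries (bars, from 0), for the 4 groups. The 12 leave out Gapdh and Pkm, which were lower in the Prdm16 knockout, and do not stand for all members. Ndrg1, Bnip3, Aldoa and P4ha2 are highest in the Prdm16 knockout, Slc2a1 and Slc2a3 are higher in both Prdm16 groups than in both PR domain groups, and Hif1a spans 2144 to 2565.

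The HIF prolyl hydroxylases, which mark HIF alpha subunits for degradation when oxygen is present, did not move together. Egln1 (ENSMUSG00000031987.6, chromosome 8, 124908587 to 124949324, minus strand), the main one in most cells, had normalised fragments of 752 and 746 in the Prdm16 control against 851 and 819 in its knockout, with 905 and 909 in the PR domain control against 663 and 665 in its knockout. It fell in the PR domain knockout by 0.45 on the log2 scale (SE 0.06, limma adjusted p = 1.03e-06), a call that held under each of 19 alternatives. Its rise in the Prdm16 knockout, 0.16 ± 0.06 (limma adjusted p = 0.0379), was lost without any 1 of the 4 Prdm16 libraries (between 0.13 and 0.18), and without either PR domain control library. Egln3, which is strongly induced by HIF, had normalised fragments of 242 and 228 in the Prdm16 control against 314 and 330.1 in its knockout, with 170.4 and 178 in the PR domain control against 227 and 219 in its knockout. It rose in both, at 0.45 ± 0.10 (limma adjusted p = 0.000515) and 0.36 ± 0.10 (limma adjusted p = 0.0101), the second not passing without PR domain control replicate 1 (0.33) or PR domain knockout replicate 1 (0.33).

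Vegfa, the growth factor that draws blood vessels, had normalised fragments of 1087 and 1093 in the Prdm16 control against 1277 and 1233 in its knockout, with 947 and 988 in the PR domain control against 950.0 and 928 in its knockout. It rose in the Prdm16 knockout, at 0.20 ± 0.05 (limma adjusted p = 0.00357), and did not pass in the other. Car9 (ENSMUSG00000028463.14, chromosome 4, 43506966 to 43513729, plus strand), a carbonic anhydrase of the cell surface that is nearly silent in most tissues with enough oxygen, had normalised fragments of 17.0 and 18.8 in the Prdm16 control against 44.7 and 47.3 in its knockout, with 13.2 and 12.4 in the PR domain control against 5.38 and 9.93 in its knockout. These levels came from 6 to 43 fragments a library. The Prdm16 knockout libraries were above all others, with 1.32 ± 0.36 (limma adjusted p = 0.0039), and the PR domain knockout libraries were the lowest but did not pass (limma adjusted p = 0.173).

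Ddit4, an inhibitor of mTOR signalling, and Mxi1, which opposes Myc at shared targets, passed in neither knockout. Ddit4 had normalised fragments of 765 and 799 in the Prdm16 control against 784 and 739 in its knockout, with 649 and 583 in the PR domain control against 590.3 and 635 in its knockout. Mxi1 had normalised fragments of 406 and 385 in the Prdm16 control against 411 and 454 in its knockout, with 479.7 and 451 in the PR domain control against 397 and 440.0 in its knockout. The Ddit4 libraries of each knockout overlapped with those of its control, and the Mxi1 libraries did not overlap, though neither change passed. The histone demethylase gene Kdm3a ranged over 1316 to 1543 normalised fragments in 8 libraries (median 1469.6) and passed in no comparison, with a 95% interval of -0.22 to 0.00 in the Prdm16 knockout. Higd1a, of the mitochondrial inner membrane (92.6 to 129 normalised fragments), Hilpda, which keeps lipid in droplets (101 to 140.1), and Ankrd37 (65.5 to 128) passed in no comparison either. The peptide hormone gene Adm (9.87 to 34.1) was low, and with a 95% interval of -0.28 to 1.12 on the log2 scale in the Prdm16 knockout a change was not detectable at this depth. The enzymes Pgk1 (186 to 273) and Pgam1 (111 to 148) complete the 7 genes that passed nowhere.

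Hif1a, the oxygen-regulated subunit, is read here through a locus joined with its protein-coding neighbour Snapc1 and the gene model Gm49321, so that its value belongs to no single gene. The locus had normalised fragments of 2148 and 2144 in the Prdm16 control against 2213 and 2279 in its knockout, with 2474 and 2434 in the PR domain control against 2565 and 2441 in its knockout. It passed in neither knockout, with 95% intervals of -0.02 to 0.15 and -0.06 to 0.12 on the log2 scale. HIF alpha is controlled mainly through protein stability, which RNA does not measure.

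The effects of both knockouts were then compared directly, as the Prdm16 knockout effect minus the PR domain knockout effect. Of the 38 genes, 17 had a larger value in the Prdm16 knockout and 1, Gapdh, a smaller one, where 16.4% of all loci passed, 8.60% larger and 7.81% smaller. By role these were 5 of 15 glycolytic enzymes, 5 of 7 genes of transport and flux control and 7 of 15 other HIF targets. The widest gaps were those of Car9, 2.04 ± 0.51 (limma adjusted p = 0.00496), Ndrg1, 1.25 ± 0.10 (limma adjusted p = 1.38e-10), Gapdh, -0.90 ± 0.23 (limma adjusted p = 0.00689), and Bnip3, 0.78 ± 0.11 (limma adjusted p = 4.46e-06). Egln1 followed at 0.61 ± 0.08 (limma adjusted p = 4.35e-06), then P4ha2 at 0.56 ± 0.09 (limma adjusted p = 1.75e-05), Pfkp at 0.50 ± 0.09 (limma adjusted p = 7.16e-05) and P4ha1 at 0.46 ± 0.06 (limma adjusted p = 2.04e-06). The difference of Pfkp was -0.03 on log2(FPKM + 1). Next were Pfkfb3 at 0.43 ± 0.10 (limma adjusted p = 0.00279), Aldoa at 0.42 ± 0.05 (limma adjusted p = 3.86e-07) and Ldha at 0.39 ± 0.05 (limma adjusted p = 5.15e-07). Hk2, Aldoc, Gpi1 and Egln3, which rose in the Prdm16 knockout, did not pass the test of the difference. Car9 and Gapdh did not pass it with the DESeq2 Wald test. With total-fragment scaling, 12 were larger and 2 smaller, while 37.0% of all calls were then larger, against 52.4% with the authors' scaling. On log2(FPKM + 1), 3 were larger (Bnip3, Ndrg1 and P4ha2) and 0 smaller, at an adjusted p below 0.05. Of all loci, 132 were then larger and 67 smaller, in place of 1430 and 1298.

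The wild types also differed from each other. In the PR domain control, 11 of the 38 genes were higher and 12 lower than in the Prdm16 control, where 33.0% of all loci passed, 16.3% higher and 16.7% lower. Glycolytic enzymes were 4 higher and 6 lower of 15, transport and flux control 2 and 3 of 7, and other HIF targets 4 and 3 of 15. Slc2a3 had the widest gap, at -2.22 ± 0.03 (limma adjusted p = 1.61e-30), followed by Slc2a1 at -1.01 ± 0.04 (limma adjusted p = 2.1e-18). Gapdh (-0.87 ± 0.16), Hk2 (-0.55 ± 0.05), Pkm (-0.54 ± 0.04), Pfkl (-0.49 ± 0.05) and Ldha (-0.37 ± 0.03) were also lower, each with a limma adjusted p of at most 0.000103. Hk1 (0.52 ± 0.07), Eno1 (0.45 ± 0.08), Ndrg1 (0.43 ± 0.07) and Pfkp (0.43 ± 0.06) were higher, each at an adjusted p of at most 1.88e-05, although Pfkp was -0.09 on log2(FPKM + 1). Also higher were Pdk3 (0.31 ± 0.07), Egln1 (0.28 ± 0.06), P4ha2 (0.27 ± 0.06), Mxi1 (0.23 ± 0.08), Hif1a (0.19 ± 0.04), Pfkm (0.18 ± 0.06) and Pdk1 (0.16 ± 0.06, and -0.09 on log2(FPKM + 1)), and also lower were Egln3 (-0.43 ± 0.10), Ddit4 (-0.35 ± 0.07), Slc16a3 (-0.26 ± 0.05), Tpi1 (-0.21 ± 0.04) and Vegfa (-0.17 ± 0.05), at adjusted p-values up to 0.0346. On log2(FPKM + 1), 3 of the 38 were higher and 7 lower. Of all loci, 828 were then higher and 889 lower, in place of 2710 and 2771. In the same comparison 10 of 10 endoderm markers were lower, with a median of -2.36, 4 of 5 pluripotent cell markers were lower and 1 higher, and 9 of 9 macrophage markers were higher. Without PR domain control replicate 1, Pfkm (0.18), Pdk1 (0.19), P4ha2 (0.20) and Mxi1 (0.19) did not pass, nor did Vegfa (-0.14). Fewer of all loci passed in that fit too. Pfkm (0.17), Pdk3 (0.21) and Vegfa (-0.18) were lost without Prdm16 control replicate 1, Pdk1 (0.10), Vegfa (-0.17) and Mxi1 (0.20) without Prdm16 control replicate 2, and Pfkm (0.19) and Pdk1 (0.13) without PR domain control replicate 2. Since the PR domain control enters both this comparison and the PR domain knockout comparison, and the Prdm16 control both this and the Prdm16 knockout comparison, their values are not independent.

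Further genes around the pathway were counted from lists of named genes, to be read against the shares of all loci: 18.0% higher and 21.1% lower in the Prdm16 knockout, 8.48% higher and 10.7% lower in the PR domain knockout. Of 15 genes of pyruvate and lactate fate, 5 rose and 4 fell in the Prdm16 knockout, and 1 rose and 2 fell in the PR domain knockout. Slc16a1, the widespread monocarboxylate transporter, had normalised fragments of 3726 and 3700.0 in the Prdm16 control against 5166 and 5160.1 in its knockout, with 947 and 915 in the PR domain control against 1072 and 1075 in its knockout. It rose in both (0.48 ± 0.04, limma adjusted p = 4.27e-10 and 0.21 ± 0.04, limma adjusted p = 0.000808). Its order of groups is that of Slc2a3. Pyruvate carboxylase, Pcx, which feeds pyruvate into the citrate cycle as oxaloacetate, fell in the Prdm16 knockout by 0.79 (limma adjusted p = 0.000203). Of 15 further isozymes and genes of sugar entry, 7 rose and 3 fell in the Prdm16 knockout and 4 rose and 2 fell in the PR domain knockout. The hexokinase-related gene Hkdc1 rose in both (0.85 ± 0.14 and 1.46 ± 0.14, limma adjusted p = 1.43e-05 and 2.87e-09), as did the galactokinase gene Galk1 (0.53 ± 0.06 and 0.25 ± 0.06). The muscle enolase gene Eno3 went from 909.7 and 965 to 503 and 522 in the PR domain knockout, a log2 change of -0.87 ± 0.06 (limma adjusted p = 9.9e-12). Its change in the Prdm16 knockout, -0.10 ± 0.06, missed the threshold (limma adjusted p = 0.217).

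Glycogen genes rose for 7 of 10 in the Prdm16 knockout, with 0 lower and a median of 0.32, and were 1 higher and 3 lower in the PR domain knockout. Pygl, liver glycogen phosphorylase, rose from 36.0 and 38.6 normalised fragments to 136 and 114 in the Prdm16 knockout, at 1.72 ± 0.16 (limma adjusted p = 2.82e-10). It had 131 and 124 in the PR domain control against 153 and 148 in its knockout. The PR domain control thus lay above the Prdm16 control by 1.74 ± 0.16. The phosphoglucomutase Pgm2 (0.44 ± 0.05) and Ugp2 (0.40 ± 0.06), which makes the sugar donor for glycogen, also rose in the Prdm16 knockout. Gyg, the primer of glycogen, fell in the PR domain knockout by 0.66 (limma adjusted p = 1.44e-09). Of 16 citrate cycle genes, 3 rose and 3 fell in the Prdm16 knockout, and 0 rose and 7 fell in the PR domain knockout, among them Idh3a (-0.41 ± 0.07 and -0.34 ± 0.07), which fell in both. The share of citrate cycle genes called in the Prdm16 knockout was near that of all loci. Of 7 pentose phosphate genes, 1 rose and 1 fell in the Prdm16 knockout and 2 fell in the PR domain knockout. Of 3 gluconeogenesis genes tested, Slc37a4 rose in the Prdm16 knockout (0.62 ± 0.14).

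The machinery of oxygen sensing changed gene by gene. Of 13 such genes, 5 rose and 3 fell in the Prdm16 knockout, and 1 rose and 5 fell in the PR domain knockout. Hif3a, which encodes a HIF alpha subunit that can dampen the others, had normalised fragments of 405 and 385 in the Prdm16 control against 789 and 791 in its knockout, with 520.2 and 514 in the PR domain control against 564 and 458 in its knockout. Hif3a rose in the Prdm16 knockout at 1.00 ± 0.08 (limma adjusted p = 1.79e-11). The name has 2 loci, of which the locus with the higher mean was read. Arnt2, the neural-type partner of HIF alpha, had normalised fragments of 230.1 and 186 in the Prdm16 control against 64.5 and 48.4 in its knockout, with 212 and 219 in the PR domain control against 149.8 and 135 in its knockout. It fell in both (-1.87 ± 0.15, limma adjusted p = 1.06e-11 and -0.60 ± 0.15, limma adjusted p = 0.00296), beside the fall of the neural marker Sox2, which had normalised fragments of 253 and 231 in the Prdm16 control against 62.0 and 55.0 in its knockout, with 177 and 162 in the PR domain control against 78.9 and 91.8 in its knockout. Epas1, the HIF alpha subunit best known from endothelium, was higher in the Prdm16 knockout (0.23 ± 0.07, limma adjusted p = 0.012) but lower in the PR domain knockout (-0.69 ± 0.07, limma adjusted p = 1.2e-08). Cited2, which competes with HIF for its coactivator, did likewise (0.53 ± 0.07 and -0.32 ± 0.07).

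Of 23 further HIF targets, 10 rose and 5 fell in the Prdm16 knockout, and 1 rose and 6 fell in the PR domain knockout. Among them, Epo was read through a locus joined with Gnb2 and Mir6418, and Loxl2 through one joined with Gm21451 and Mir6950. These values belong to no single gene. Plod2, a collagen lysyl hydroxylase, rose from 2133 and 2384 normalised fragments to 3311 and 3494 in the Prdm16 knockout (0.59 ± 0.05, limma adjusted p = 2.95e-11). Ero1l, which drives oxidative folding (0.57 ± 0.07), and the transcriptional repressor gene Bhlhe40 (0.72 ± 0.08) rose as well. Bhlhe40 was also higher in the PR domain control than in the Prdm16 control (0.62 ± 0.08). Of 11 genes of the integrated stress response, 3 rose and 2 fell in the Prdm16 knockout, and 2 rose and 1 fell in the PR domain knockout. The stress-induced factor gene Atf3 rose from 825 and 797 to 2105 and 1863 in the Prdm16 knockout (1.29 ± 0.06, limma adjusted p = 9.86e-18) but dropped from 1844 and 1837 to 1025 and 1048 in the PR domain knockout (-0.83 ± 0.06, limma adjusted p = 9.2e-13). Atf4 (0.25 ± 0.05) and Ddit3 (0.68 ± 0.14) rose in the Prdm16 knockout, while Asns, a target of ATF4 that makes asparagine, fell there (-0.52 ± 0.08) and rose in the PR domain knockout (0.26 ± 0.08).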

How the data were processed

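RNA-seq of 8 libraries in 4 groups of 2, grouped by sample title, was used as deposited. The authors' table holds signal values, which are fragments per locus divided by a size factor per library, in the form Cuffnorm writes, per the file headers and the values. Divided by 1 step per library (0.827 to 1.24), over 99.99% of values were whole within 0.1, and these recovered fragments entered the edgeR and DESeq2 alternatives. FPKM values, also deposited by the authors, scale fragments by length and library size. Tools named in the submitters' processing notes, without a role, are Cufflinks 2.2.1, TopHat2 2.1.1, deepTools and SAMtools 1.5, with the build mm10. The sources used here do not state the annotation release, the strand setting or how fragments with several places were treated.

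Of 53068 distinct loci, 787 had no name (1.88 to 2.53% of fragments) and were left out. Limma 3.58.1 (R 4.3.3), with a trend in the prior variance, was fitted to log2(value + 1) of the 16623 loci that reached a value of 10 in 2 or more libraries. The model had 4 group means, no covariate, 4 residual and 25.4 prior degrees of freedom. Fold changes on this scale understate those of low genes. Calls have a Benjamini-Hochberg adjusted p below 0.05 over all loci. Errors of fold changes are standard errors from limma. Alternatives were DESeq2 1.42.0, TMM and total-fragment scaling, pseudocounts of 0.5 and 5, no filter, log2(FPKM + 1), edgeR 4.0.16 and the DESeq2 Wald test on recovered fragments, only the groups compared, a replicate block, and leaving out each library. Replicate libraries differed beyond sampling noise (chi-square over degrees of freedom, 1.39 to 2.17). The fit was tested on simulated data.

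Members and lists were chosen with earlier results of these data known. Genes called in at least 1 comparison were given per-library values, with ranges for others, and of each further list up to 4 genes with the smallest adjusted p in either knockout were open to naming. Of each cell type list, the sum and the first 2 genes were. Positions, identifiers and shared windows (50 bases, either strand) come from GENCODE M21 (GRCm38), and promoters from RefSeq.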

Additional observations from a re-analysis of the deposited data

Results flagged for a closer look

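For 18 of the 38 genes, the effect of the Prdm16 knockout differed from that of the PR domain knockout by limma's test of the difference itself, at a Benjamini-Hochberg adjusted p below 0.05 over 16623 loci. On the log2 scale, as the Prdm16 knockout effect minus the PR domain knockout effect, the glycolytic enzymes among them were Pfkm (0.29), Pfkp (0.50), Aldoa (0.42), Tpi1 (0.24), Ldha (0.39) and Gapdh (-0.90). The genes of transport and flux control were Slc2a1 (0.34), Slc2a3 (0.14), Slc16a3 (0.22), Pdk1 (0.27) and Pfkfb3 (0.43). The other HIF targets were Bnip3 (0.78), Ndrg1 (1.25), Vegfa (0.25), Egln1 (0.61), P4ha1 (0.46), P4ha2 (0.56) and Car9 (2.04).

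Leaving out 1 library at a time ended 5 of these calls. Pfkm did not pass without Prdm16 control replicate 1 (0.28) or PR domain control replicate 1 (0.29), and Slc2a3 without any of the 4 Prdm16 libraries or either PR domain control library (0.13 to 0.15). Slc16a3 did not pass without any library but Prdm16 control replicate 2 and PR domain knockout replicate 2 (0.16 to 0.25). Pdk1 did not without Prdm16 control replicate 2, either Prdm16 knockout library, PR domain control replicate 2 or PR domain knockout replicate 2 (0.21 to 0.27), nor Vegfa without either Prdm16 control library, Prdm16 knockout replicate 1, PR domain control replicate 2 or PR domain knockout replicate 2 (0.22 to 0.25). The difference of Pfkp was -0.03 on log2(FPKM + 1). The DESeq2 Wald test ended 7 of the 18 calls: Pfkm, Slc2a3, Slc16a3, Pdk1, Vegfa, Car9 and Gapdh. Each group had 2 libraries, so no library could be tested for standing apart from the rest of its group.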

How the results depend on the processing

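Of the genes called in the Prdm16 knockout, 11 of 23 kept their direction and their call under each of 19 alternatives (Aldoa, Tpi1, Gapdh, Ldha, Slc2a1, Slc2a3, Pfkfb3, Bnip3, Ndrg1, P4ha1 and P4ha2), and 17 under all but log2(FPKM + 1). In the PR domain knockout 2 of 11 did (Slc2a3 and Egln1) and 6 without the FPKM fit, for the difference 3 of 18 under 18 alternatives and 11, and for the wild types 10 of 23 and 17. On log2(FPKM + 1), the counts of genes higher and lower came to 11 and 1 for the Prdm16 knockout, to 1 and 1 for the PR domain knockout, to 3 and 0 for the difference, and 3 and 7 between the wild types. Over all 16623 loci that fit also called fewer, in the same order 2244, 582, 199 and 1717 in place of 6502, 3190, 2728 and 5481. Of fold changes, 5 changed sign there: Pfkp in the Prdm16 knockout (-0.1285), for the difference (-0.0271) and between the wild types (-0.0911), and Pdk1 in the Prdm16 knockout (-0.1144) and between the wild types (-0.0924). The cause was not tested.

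The number of genes lower in the Prdm16 knockout, 2 as reported, was 1 with DESeq2 scaling, TMM scaling, no filter, edgeR, the DESeq2 Wald test or the replicate block, 4 with total-fragment scaling, and 1 among the 33 genes with at most 40% of windows shared, a choice made after seeing the data. For the difference, the DESeq2 Wald test called 11 higher and 0 lower, total-fragment scaling 2 lower, and the 33 genes 0 lower. Over all loci, that Wald test called 703 higher and 486 lower, in place of 1430 and 1298. Total-fragment scaling called 1851 of all loci lower. With 1 library left out at a time, the counts higher and lower ranged over 17 to 21 and 1 to 3 for the Prdm16 knockout, 4 to 7 and 4 to 5 for the PR domain knockout, 13 to 16 and 1 for the difference, and 7 to 11 and 11 to 12 between the wild types. A group left with 1 library was assumed to vary like the others.

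The deviations of libraries with the same replicate number had correlations of -0.036 to 0.031 across loci between groups. Counting noise at low loci pulls such correlations towards 0, so they cannot show whether the numbers pair the samples. With the replicate block, 21 genes were higher and 1 lower for the Prdm16 knockout, 6 higher and 4 lower for the other. With 2 libraries a group and 6 to 43 fragments for Car9 and 11 to 31 for Adm, depth limits what can be seen for these genes.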
